A study of Mus musculus with 6 samples.

Results

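The genes of the major histocompatibility complex (MHC) and of antigen processing were read in whole mouse lung after naphthalene, a compound whose metabolite injures the conducting airway. Members were defined by annotation, in a choice made with earlier results of these data known. They were every probe set whose gene symbols all begin with H2-, together with the probe sets that carry only the symbol B2m, Ciita, Tap1, Tap2, Tapbp, Nlrc5, Psmb8, Psmb9 or Psmb10. This gave 43 of 24173 probe sets. They comprised 10 class II molecules, 22 class I molecules, 9 probe sets of class I partners, Ciita as the class II partner, and H2-Ke6, a steroid dehydrogenase gene that is named for its place in the complex and codes for no MHC molecule. Of the 43, 5 carried several H2 symbols and their signal cannot be assigned to 1 gene. Cd74 shares its probe set with the symbol Mir5107 and so was not a member.

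Microarrays had been run on 3 wild-type (WT) and 3 Falcor-null samples. Falcor is a long non-coding RNA transcribed beside Foxa2, a transcription factor of airway epithelium. Every sample was whole lung, carried a mixed CD1 and C57Bl6 strain label and had received naphthalene, with labelled times of 28, 29 and 30 days for WT replicates 1, 2 and 3 and 31, 32 and 33 days for Falcor-null replicates 1, 2 and 3. As labelled, time and genotype cannot be told apart; the labelled days rise by 1 from sample to sample, and whether they are the true times is not known here. The labels give no array without naphthalene, do not describe the null allele and do not say whether samples came from separate animals, so p-values measure only the spread between these samples. Values are log2 signals, 1 per probe set and array. A difference is the arrays labelled Falcor-null minus WT, and it passed the test at a limma adjusted p under 0.05 over all 24173 probe sets.

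Array medians were 6.72, 6.74 and 6.72 in WT and 6.69, 6.70 and 6.70 on arrays labelled Falcor-null. The lowest value on an array was 3.22, 3.22 and 3.19 in WT against 2.32, 2.09 and 2.42. Correlations between arrays were 0.982 to 0.986 within a group and 0.970 to 0.976 between groups. The Falcor probe set (symbol 9030622O22Rik) read 4.69, 5.01 and 5.45 in WT against 6.82, 6.34 and 6.32 in the samples labelled Falcor-null (difference 1.44, adjusted p 0.0442). It was higher where the label says null, and every direction below rests on those labels. Marker lists of lung tissue were high on all arrays, with list means of 11.8 to 12.0 for alveolar type 2 cells and 12.3 to 12.6 for club cells.

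MHC class I molecules pair with beta-2 microglobulin (B2m) on nearly every nucleated cell and show peptides cut by the proteasome, loaded in the endoplasmic reticulum by the Tap1 and Tap2 transporter and tapasin (Tapbp), to CD8 T cells. Class II molecules are made of an alpha and a beta chain, are found mainly on B cells, dendritic cells and macrophages, and in lung also on alveolar type 2 cells, and show peptides from endosomes to CD4 T cells. The coactivator Ciita drives class II genes through the X and Y boxes of their promoters, and Nlrc5 has the same role for class I genes. Mouse H2 genes differ in sequence and number between haplotypes, and mice of the b haplotype, which C57BL/6 carries, do not express H2-Ea.

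Class II molecules were lower on the arrays labelled Falcor-null in 9 of 10 members, and 1 of them, H2-Oa, passed the test. Over all probe sets, 0.645% passed as lower. The 10 members had a median log2 difference of -0.51, against 0.01 over all probe sets. At an unadjusted p under 0.05 in limma, 7 of 10 were lower, beside 7.00% of all probe sets, and in 6 of 10 all 3 arrays labelled Falcor-null lay below all 3 WT arrays, beside 9.85%. None of the 10 was called higher, where 0.0621% of all probe sets were. In bulk tissue, fewer cells that carry class II and less class II RNA per cell cannot be told apart. The H2 haplotype of each sample is not known here either, and its part in these signals was not tested.

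**Figure D1:**
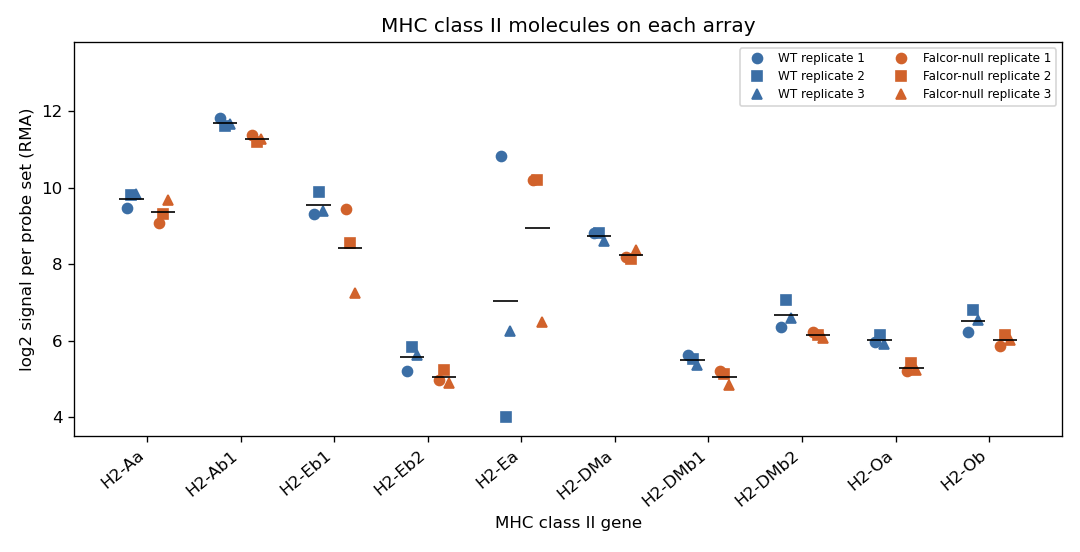
Log2 signal of the 10 class II molecules (y axis) by gene (x axis); each symbol is 1 array, blue for WT and orange for arrays labelled Falcor-null, with the replicate number as the shape, and short black lines are group means (n = 3). In H2-Ab1, H2-DMa, H2-DMb1, H2-DMb2, H2-Oa and H2-Ob the groups do not overlap, while H2-Ea ranges from 3.99 to 10.82 over the arrays.

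Promoter sequence is shown for the class II genes because these genes are known to share promoter elements. RefSeq windows (assembly GRCm38.p6) were given for 8 of the 10 genes, H2-Ab1 and H2-Ea being the others, and the 250 bases before each start were searched on both strands. The letters TGATTGG, which hold the core of the Y box and so overlap the CCAAT motif, were found in 7 of 8 genes against 7.23% of all 32851 windows. The letters AACNGATG, a core of the X box, were found in 4 of 8 (H2-Eb1, H2-Eb2, H2-DMb1 and H2-DMb2) against 1.98%. These letters were picked after the windows had been seen. Each line below runs 5′ to 3′ on the gene's strand from 40 bases before TGATTGG to 10 after it, with matches to either motif in capitals.
H2-Eb1 (chr17:34305766-34305822, plus strand): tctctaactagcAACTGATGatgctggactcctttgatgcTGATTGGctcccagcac
H2-Eb2 (chr17:34325533-34325589, plus strand): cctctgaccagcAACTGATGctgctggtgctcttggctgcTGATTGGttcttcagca
H2-DMb1 (chr17:34153088-34153144, plus strand): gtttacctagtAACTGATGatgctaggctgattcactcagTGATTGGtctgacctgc
H2-DMb2 (chr17:34145117-34145173, plus strand): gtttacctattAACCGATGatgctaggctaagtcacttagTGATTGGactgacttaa
H2-Ob (chr17:34238806-34238862, plus strand): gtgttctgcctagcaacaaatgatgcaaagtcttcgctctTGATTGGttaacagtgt
H2-Oa (chr17:34092294-34092350, plus strand): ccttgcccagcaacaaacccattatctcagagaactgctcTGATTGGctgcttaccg
H2-Aa (chr17:34287857-34287913, minus strand): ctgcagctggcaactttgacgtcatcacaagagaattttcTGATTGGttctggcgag

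In the 4 genes with both matches, 20 or 21 bases lay between them, and TGATTGG began 45 to 102 bases before the start over all 7. H2-DMa had CCAAT without the longer letters; CCAAT alone was in 8 of 8 genes and in 33.8% of all windows. These stretches belong to the C57BL/6J reference, and the sequence of the sampled animals is not known here. Among class I genes with a window, TGATTGG was found in 7 of 13 and AACNGATG in 0 of 13. Of these class I matches to TGATTGG, only that of H2-T22 was on the gene's strand, and the rest were on the other strand. All 7 class II matches were on the gene's strand. The letters GGGATTCCC, a kappa B element of the class I enhancer A, were found in 4 of those 13 (H2-D1, H2-K1, H2-Q6 and H2-Q7), in 0 of 8 class II genes and in 0.301% of all windows. The interferon-stimulated letters GAAANNGAA were found in H2-T22, H2-T23 and B2m (7.13% of all windows), and the gamma-activated letters TTCNNNGAA in H2-DMb2, H2-M3 and Psmb8 (7.02%).

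H2-Oa, the alpha chain of the DO molecule that restrains peptide loading by DM in B cells, read 5.97, 6.15 and 5.91 in WT and 5.21, 5.42 and 5.22 on arrays labelled Falcor-null. The groups did not overlap, and the gene fell 1.66-fold (log2 difference -0.73, SE 0.10, adjusted p 0.0331). It is dim on these arrays, and the call was lost with any 1 array left out, with adjusted p-values from 0.0583 to 0.140 and differences from -0.66 to -0.80. A second probe set that carries H2-Oa beside BC051537, and so is no member, differed by 0.08 (adjusted p 0.815) at signals of 4.55 to 4.90. H2-Ob, the beta chain of DO, read 6.21, 6.79 and 6.54 in WT and 5.86, 6.16 and 6.01 on the others. Its lowest WT array stood just above the highest array labelled Falcor-null, and the difference of -0.51 did not pass (95% interval -0.88 to -0.13, adjusted p 0.262).

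The DM molecule exchanges the invariant chain remnant for peptide, and its chains were lower without passing. H2-DMa, the alpha chain, gave 8.81, 8.83 and 8.60 in WT against 8.20, 8.14 and 8.36. The groups were apart, with a difference of -0.52 (SE 0.10, adjusted p 0.107). The beta chain gene H2-DMb1 gave 5.61, 5.52 and 5.35 against 5.20, 5.14 and 4.83, and its copy H2-DMb2 gave 6.35, 7.06 and 6.59 against 6.23, 6.15 and 6.06. Both sets of groups were apart, H2-DMb2 only narrowly, with differences of -0.44 (adjusted p 0.222) and -0.52 (adjusted p 0.296), the latter -0.32 without WT replicate 2. The 2 beta chain genes resemble each other closely, so signal may be shared between their probe sets.

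Among the presenting molecules themselves, H2-Ab1, the beta chain of I-A, was the brightest at 11.83, 11.61 and 11.65 in WT and 11.37, 11.20 and 11.27 on arrays labelled Falcor-null. All 3 of the latter were lower, with a mean difference of -0.42 (SE 0.09, 1.34-fold, adjusted p 0.138). H2-Aa, the alpha chain of I-A, read 9.48, 9.82 and 9.84 against 9.09, 9.31 and 9.69. Here the groups overlapped, because Falcor-null replicate 3 lay above WT replicate 1, and the difference was -0.35 (95% interval -0.76 to 0.06, adjusted p 0.453), or -0.22 without Falcor-null replicate 1.

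The I-E chains were less alike between arrays. H2-Eb1, the beta chain of I-E, read 9.32, 9.88 and 9.40 in WT and 9.44, 8.55 and 7.25 on arrays labelled Falcor-null. Falcor-null replicate 1 was as high as WT while replicate 3 was the lowest array by over 1 log2 unit. The difference of -1.12 had an interval from -2.30 to 0.06 (adjusted p 0.415) and was -0.54 without Falcor-null replicate 3. H2-Eb2, a further beta chain gene, read 5.22, 5.84 and 5.63 against 4.97, 5.24 and 4.89, with an overlap of WT replicate 1 and Falcor-null replicate 2 (difference -0.53, adjusted p 0.282).

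H2-Ea, the alpha chain of I-E, had the largest within-group SD of all 24173 probe sets, at 2.89 on the log2 scale against a median of 0.14. It read 10.82, 3.99 and 6.26 in WT and 10.19, 10.19 and 6.48 on arrays labelled Falcor-null. High arrays stood in both groups, as did low ones: WT replicate 1 and Falcor-null replicates 1 and 2 were above 10, WT replicate 3 and Falcor-null replicate 3 lay between 6 and 7, and WT replicate 2 was at 3.99. The arrays spanned 6.83 log2 units, and the group difference was 1.93 (95% interval -2.27 to 6.13, adjusted p 0.706), which ranged from 0.41 without WT replicate 2 to 3.83 without WT replicate 1. The haplotype of each sample is not given in the labels, and whether it differed between samples was not tested. With H2-Ea left out, a choice made after its values were seen, 9 of 9 class II molecules were lower with a median of -0.52.

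**Figure D2:**
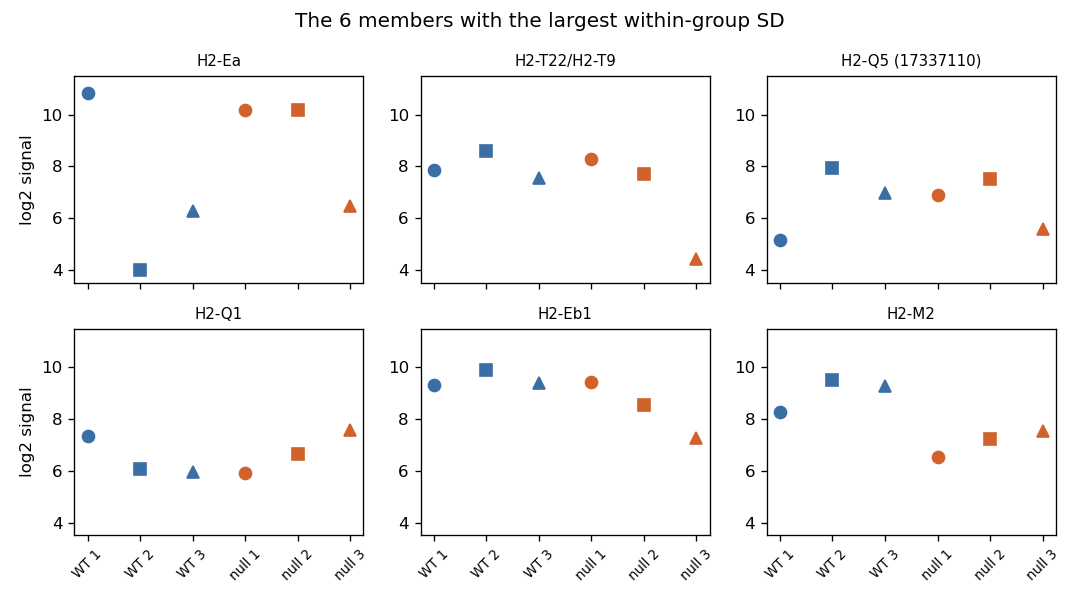
Log2 signal (y axis) on each of the 6 arrays (x axis; "null" stands for arrays labelled Falcor-null) for the 6 members with the largest within-group SD; each symbol is 1 array. H2-Ea is high on WT replicate 1 and Falcor-null replicates 1 and 2, H2-T22/H2-T9 reads 4.44 on Falcor-null replicate 3 against 7.55 or more elsewhere, and the H2-M2 groups do not overlap.

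Neither the regulator nor the chaperone of class II passed the test. Ciita read 8.27, 7.63 and 7.58 in WT and 7.49, 7.51 and 7.76 on arrays labelled Falcor-null. WT replicate 1 stood above the other 5 arrays, which overlapped, and the difference was -0.24 (95% interval -0.70 to 0.21, adjusted p 0.649), or -0.02 without WT replicate 1. The probe set shared by Cd74, the invariant chain that escorts class II, and Mir5107 read 12.59, 12.43 and 12.38 against 12.30, 12.21 and 12.37 (difference -0.17, adjusted p 0.481). Its lowest WT array stood at 12.38 against 12.37 for the highest array labelled Falcor-null, so those groups were apart only narrowly.

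Class I molecules did not pass in either direction. Of 22 members, 15 were lower and 7 higher, with a median log2 difference of -0.12 that was -0.0029 without Falcor-null replicate 1. In limma, 0 of 22 passed. At an unadjusted p under 0.05, 2 were lower, beside the 7.00% background, and 2 higher, where 5.82% of all probe sets were. Groups did not overlap in 4 members, H2-K1 and H2-M2 with the arrays labelled Falcor-null below and H2-M10.1 and 1 of the H2-Q10 probe sets with them above, beside 9.85% of all probe sets below and 8.82% above.

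**Figure D3:**
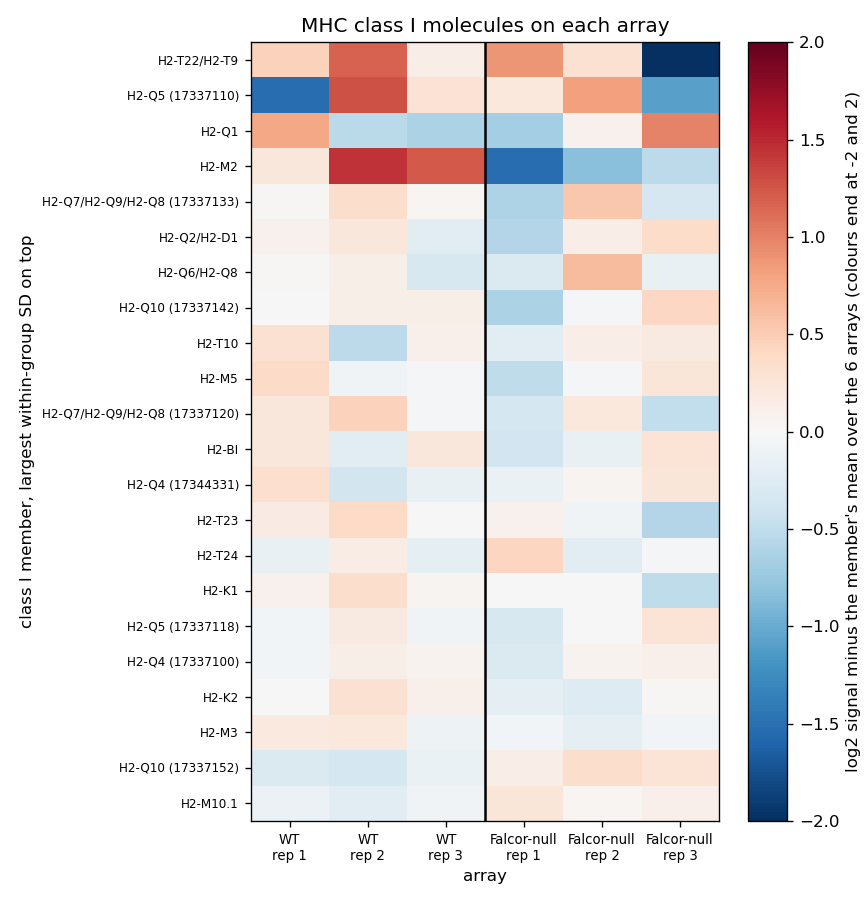
Log2 signal of each class I member minus its own mean over the 6 arrays (colour, from blue for lower to red for higher), by array (columns, with the black line between WT and arrays labelled Falcor-null) and member (rows, ordered by within-group SD). H2-M2 is red on the 3 WT arrays and blue on the other 3, whereas H2-T22/H2-T9, H2-Q5 (17337110) and H2-Q1 vary within groups; the lowest H2-T22/H2-T9 value lies beyond the end of the colour scale.

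The classical class I gene H2-K1, which presents peptide to CD8 T cells, read 10.33, 10.59 and 10.30 in WT and 10.24, 10.25 and 9.73 on arrays labelled Falcor-null. The groups were just apart, with a difference of -0.33 (95% interval -0.72 to 0.05, adjusted p 0.452) that was -0.16 without Falcor-null replicate 3. H2-D1, the other classical gene measured here, shares its probe set with H2-Q2 and read 6.04, 6.19 and 5.74 against 5.37, 6.10 and 6.34. That pair of groups overlapped fully (difference -0.06, adjusted p 0.953), and its low signal cannot stand for H2-D1 alone. The pseudogene H2-K2 read 7.14, 7.45 and 7.24 against 6.96, 6.89 and 7.16 and differed by -0.28 (adjusted p 0.381).

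H2-M2, a nonclassical class I gene, had the largest group difference among the class I molecules. It read 8.29, 9.51 and 9.29 in WT and 6.54, 7.24 and 7.54 on arrays labelled Falcor-null. All 3 of the latter were lower, with a mean difference of -1.92 (SE 0.37, 3.79-fold, 95% interval -2.79 to -1.06), and the adjusted p was 0.0971. Without WT replicate 1 the difference was -2.29 and passed (adjusted p 0.0498), while without any other array it did not, with adjusted p-values from 0.134 to 0.247. H2-M3, which presents formylated peptides of bacteria and mitochondria, differed by -0.20 (adjusted p 0.491), and H2-M5 by -0.20 (adjusted p 0.750).

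The members with the smallest p-values among higher class I probe sets were H2-Q10 and H2-M10.1. Probe set 17337152 of H2-Q10, a secreted class I molecule made mainly in liver, read 6.98, 6.92 and 7.13 against 7.40, 7.62 and 7.54. Every array labelled Falcor-null was higher (difference 0.51, SE 0.10, adjusted p 0.0941), but the second H2-Q10 probe set, 17337142, read 6.60, 6.70 and 6.70 against 5.96, 6.55 and 7.00 and differed by -0.16 (adjusted p 0.829). The 2 probe sets disagreed in sign, so no direction is given for H2-Q10. H2-M10.1 was dim and read 5.31, 5.23 and 5.37 against 5.68, 5.48 and 5.53 (difference 0.26, adjusted p 0.296).

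Probe sets of the Q and T regions varied mostly from array to array. The brightest, annotated to H2-Q7, H2-Q9 and H2-Q8, of which H2-Q7 and H2-Q9 make the Qa-2 antigen, read 11.24, 11.47 and 10.97 against 10.67, 11.22 and 10.52 (difference -0.42, adjusted p 0.451). The array order differed by gene: H2-Q5 (17337110) was lowest on WT replicate 1 (5.16) and Falcor-null replicate 3 (5.59) and highest on WT replicate 2 (7.96), whereas H2-Q1 was highest on Falcor-null replicate 3 (7.58) and WT replicate 1 (7.36), with the other arrays between 5.90 and 6.67. The probe set of H2-T22 and H2-T9, of which H2-T22 is a ligand of gamma delta T cell receptors, read 7.87, 8.59 and 7.55 against 8.29, 7.71 and 4.44. Only Falcor-null replicate 3 was low there. Among other members, that array was also the lowest of the 6 in H2-Eb1, H2-Eb2, H2-DMb1, H2-DMb2, H2-K1 and H2-T23. It was the lowest as well in the brightest probe set of H2-Q7, H2-Q9 and H2-Q8 and in Tapbp (17336228). The same array was the highest in H2-Q1, H2-Bl, H2-Q10 (17337142), H2-Q5 (17337118) and the probe set of H2-Q2 and H2-D1. H2-T23, which encodes Qa-1, the ligand of the Cd94 and Nkg2a receptor on natural killer cells, read 7.44 on it, against 7.95 to 8.41 elsewhere.

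The class I members not yet named had groups that overlapped. A second probe set annotated to H2-Q7, H2-Q9 and H2-Q8 read 7.36, 7.69 and 7.38 against 6.73, 7.87 and 7.00 (difference -0.28), lower on Falcor-null replicates 1 and 3 and higher on replicate 2. The probe set of H2-Q6 and H2-Q8 was highest on the same replicate 2, at 9.64 against 8.69 to 9.13 on the other arrays (difference 0.13). Differences were -0.08 and 0.12 for the H2-Q4 probe sets, -0.03 and -0.04 for those of H2-Q5, 0.26 for H2-Q1, -0.17 for H2-Bl, 0.07 for H2-T10 and 0.13 for H2-T24, with adjusted p-values from 0.778 to 0.992. Where a gene had 2 probe sets, those of H2-Q4 opposed each other in sign, and those of H2-Q5 had within-group SDs of 1.22 and 0.23.

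Within-group spread was wide in the H2 molecules. Of the 22 class I molecules, 8 (36.4%) lay above the 95th percentile of within-group SD, which is 5% of all probe sets by construction, as did 2 of 10 class II molecules (H2-Ea and H2-Eb1) and 1 of 9 class I partner probe sets (Nlrc5). The median SD was 0.31 for class I and 0.24 for class II molecules, against 0.12 for class I partners and 0.14 for all probe sets. Other genes of the same chromosomal region, leaving out olfactory receptors, had 7 of 105 above that percentile and a median SD of 0.14. H2 genes resemble one another in sequence, so that probe sets of 1 gene may take up signal of another, and why the spread is wide was not tested.

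The class I partners differed little. Of 9 probe sets, 8 were lower and 1 was higher, none passed, and none had an unadjusted p under 0.05 in limma, with a median difference of -0.08. B2m, the invariant light chain, read 13.25, 13.19 and 13.14 against 13.05, 13.17 and 13.12, near the top of the scale (difference -0.08, 95% interval -0.26 to 0.11, adjusted p 0.727). The immunoproteasome subunits replace standard subunits after interferon gamma, and their 95% intervals are given in brackets. Psmb8 read 8.90, 8.80 and 8.86 against 8.78, 8.85 and 8.83, with a difference of -0.03 (-0.21 to 0.14). Psmb9 read 8.17, 7.89 and 7.78 against 7.80, 7.93 and 7.94, with a difference of -0.06 (-0.33 to 0.22). For Psmb10 the values were 9.08, 8.90 and 8.99 against 8.88, 8.89 and 8.95, with a difference of -0.08 (-0.27 to 0.11). A fall as large as that of H2-Oa lies outside each of these intervals.

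Of the peptide transporter genes, Tap1 read 8.83, 8.69 and 8.75 in WT and 8.45, 8.51 and 8.75 on arrays labelled Falcor-null, with replicate 3 of the latter at the WT level (difference -0.19, adjusted p 0.491). Tap2 read 6.93, 6.88 and 7.13 against 6.83, 7.07 and 7.10 (difference 0.02, adjusted p 0.955). The brighter Tapbp probe set, 17336228, read 9.38, 9.41 and 9.40 against 9.34, 9.32 and 9.26, the groups being apart by a small margin (difference -0.09, adjusted p 0.653), and the dimmer one, 17343675, read 6.32, 6.50 and 6.55 against 6.50, 6.13 and 6.29 (difference -0.15, adjusted p 0.641). Nlrc5, the class I coactivator, varied most, at 7.51, 6.64 and 6.69 against 6.07, 6.59 and 6.97. Its groups overlapped, with a difference of -0.41 and an interval from -1.11 to 0.29 (adjusted p 0.612), and the difference was -0.13 without WT replicate 1 and -0.17 without Falcor-null replicate 1. H2-Ke6 read 8.07 to 8.21 over the 6 arrays and differed by 0.00456 (adjusted p 0.989).

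**Figure D4:**
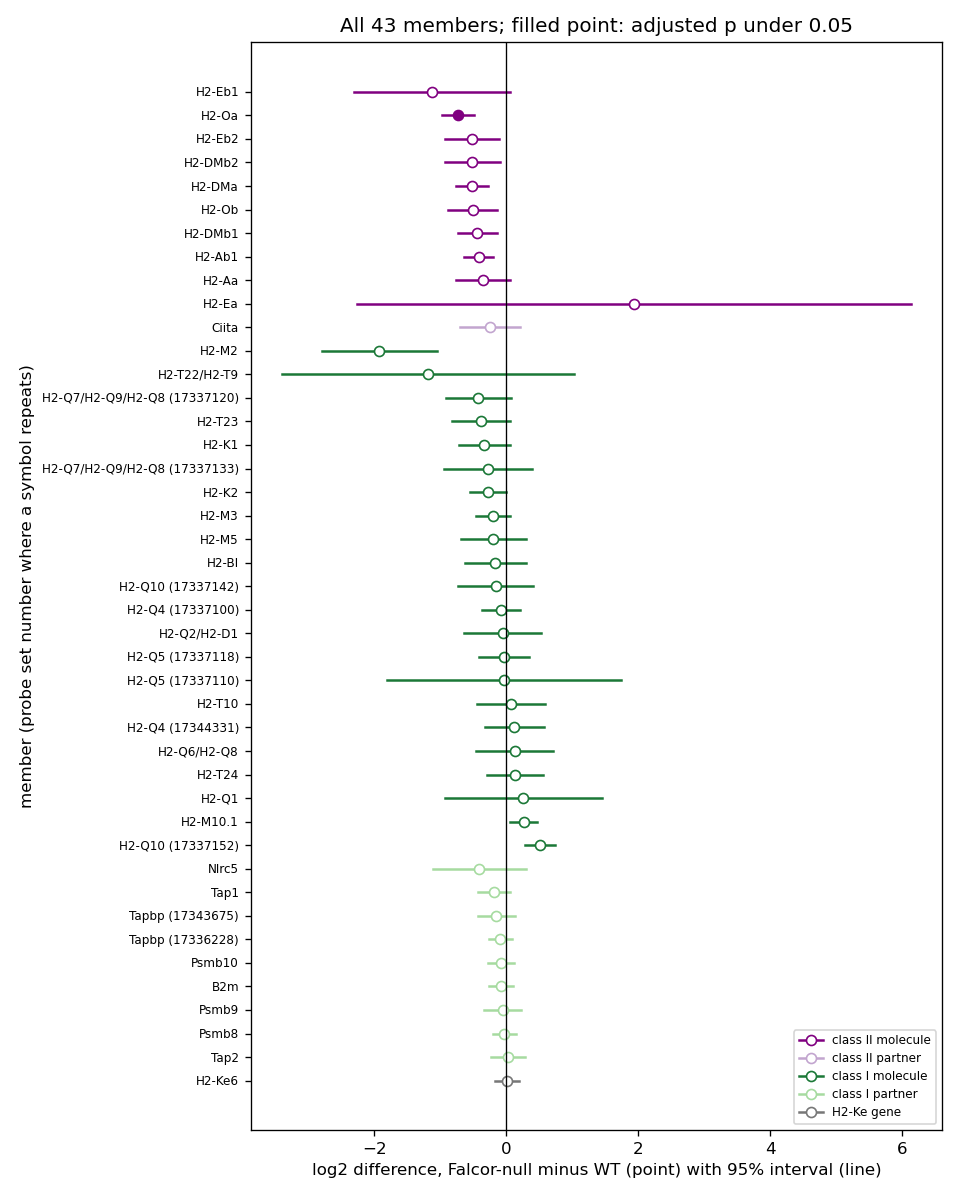
Log2 difference of arrays labelled Falcor-null minus WT (point) with its 95% interval (line, limma) for all 43 members (rows), coloured by class; filled points have an adjusted p under 0.05. H2-Oa is the filled point, 9 of 10 class II points lie left of 0, and the class I partners lie between -0.41 and 0.02.

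Other genes of the pathway, listed by function, gave 34 measured of 37, with 24 lower and 10 higher and a median difference of -0.07. At an unadjusted p under 0.05 in limma, 8 of the 34 were lower and 0 higher, beside 7.00% and 5.82% of all probe sets. Cd80, a ligand of the costimulatory receptor Cd28, was the only one of the 34 that passed, where 0.645% of all probe sets passed as lower. It read 6.36, 6.71 and 6.73 in WT and 5.79, 5.89 and 5.77 on arrays labelled Falcor-null (difference -0.79, adjusted p 0.0430). Its relative Cd86 read 6.45, 5.99 and 6.16 against 5.59, 5.61 and 5.14 (difference -0.75, adjusted p 0.140). Enzymes that prepare class II peptides were lower without passing, with differences of -0.59 for the thiol reductase Ifi30 (adjusted p 0.0525), -0.69 for the protease Ctss (adjusted p 0.265) and -0.36 for Lgmn (adjusted p 0.345). The X and Y box binding factors differed by 0.08 (Rfx5), 0.01 (Rfxap), -0.18 (Rfxank), 0.08 (Nfya), -0.03 (Nfyb) and -0.23 (Nfyc), and Irf1 and Jak1, a transcription factor and a kinase of interferon signalling, by 0.04 and -0.02, none of which passed.

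Marker lists of cells that can carry class II are given beside these values. Of 9 B cell markers measured, 9 were lower and 2 passed, and the list mean was 6.41 to 6.63 in WT and 5.79 to 5.94 on arrays labelled Falcor-null. Dendritic cell markers were lower in 7 of 9 with none passing (6.93 to 7.16 against 6.67 to 6.77), monocyte and interstitial macrophage markers in 8 of 9 with none passing (7.88 to 8.03 against 7.46 to 7.68), and alveolar macrophage markers in 9 of 9 with none passing (8.71 to 9.19 against 8.20 to 8.76, with overlap). The class II molecules without H2-Ea had a mean of 7.65 to 7.94 against 7.06 to 7.29. Alveolar type 2 markers were lower in 5 and higher in 5 of 10, with list means of 11.8 to 12.0 in both groups, and endothelial markers, on cells that carry class I, were higher in 6 of 6 with none passing (10.4 against 10.5 to 10.7). T cell markers, a cell type that in mice lacks class II, were lower in 9 of 9 with 4 passing (7.14 to 7.36 against 6.36 to 6.63). Over all probe sets, 11597 of 24173 were lower and 12576 higher, and 0.645% passed as lower. The lowest mean over arrays of any gene in these lists was 4.88, in the B cell list, and no detection calls were used. The part of these cells in the class II result was not tested.

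**Figure D5:**
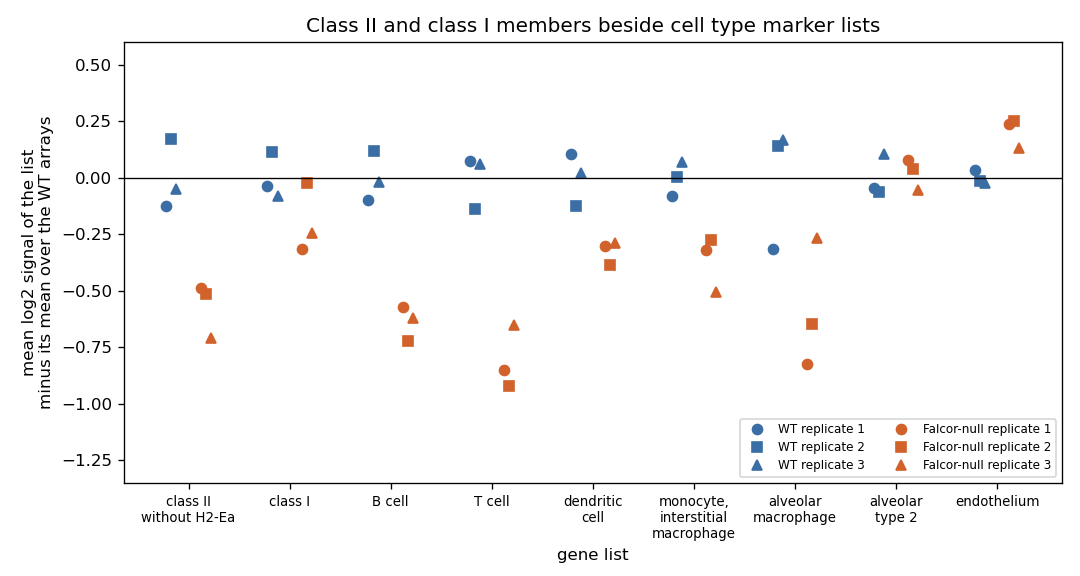
Mean log2 signal of each gene list on each array minus the list's mean over the WT arrays (y axis), for class II molecules without H2-Ea, class I molecules and marker lists (x axis); blue is WT and orange is arrays labelled Falcor-null. The class II, B cell, T cell, dendritic cell and monocyte lists have all 3 orange symbols below all 3 blue ones, the class I and alveolar macrophage lists overlap, and endothelial markers lie above.

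Position in the complex was read apart from function. Genes between the first and the last H2 gene on chromosome 17 in the RefSeq order, members and olfactory receptors left out, gave 105 measured, with 47 higher and 58 lower and a median difference of -0.01. Cfb, complement factor B, was the only one of the 105 that passed, as lower, where 0.645% of all probe sets did. It read 8.41, 8.38 and 8.44 in WT against 7.72, 7.73 and 7.81 (difference -0.66, adjusted p 0.0163). The lymphotoxin gene Ltb (-0.45, adjusted p 0.180), Mrps18b (-0.30, adjusted p 0.234), Vars (-0.40, adjusted p 0.284) and Tnf (-0.71, adjusted p 0.305) were lower without passing. Ddah2 (0.47, adjusted p 0.145) and Tnxb (0.54, adjusted p 0.198) were higher, also without passing. Of these 105, 8 had the arrays labelled Falcor-null below WT without overlap and 7 above, beside 9.85% and 8.82% of all probe sets.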

How the data were processed

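Whole-lung RNA was labelled with biotin and run on 1-colour arrays, per the labels. The authors deposited a log2 value for each probe set and array, made with oligo and RMA, with limma also named, per the submitters' processing notes, which give no versions; the genome build and any filter are not given in the sources used here. RMA makes the distributions of arrays alike, which would remove a shift of most genes. Genes were named through the platform annotation (17476 probe sets with 1 symbol, 1308 with several, 5389 with none). No coordinates of probe sets are printed. Promoter windows are RefSeq's.

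The 24173 probe sets were fitted in limma 3.58.1 (lmFit and eBayes, R 4.3.3), two-sided, without covariates, with Benjamini-Hochberg adjustment over all of them. The test was also run on simulated data with planted differences larger than the class II median, so that run does not tell how well smaller differences are found. With 3 arrays against 3 an exact permutation test cannot go below 0.1. The number of arrays limits the precision, and no detection calls were used.

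Members and lists were chosen with earlier results of these data known. Named with all 6 values were single-symbol class II molecules, Ciita, class I partners, classical class I molecules, members that passed and the 4 other class I molecules with the smallest p; others named were picked after their values were seen. Marker genes of a list are the brightest probe set of each symbol. Some listed markers and pathway genes are not reported here. Alternatives were the replicate block, scaling, variance models, a filter on dim probe sets (below the quantile 0.3), other feature sets, array weights and leaving out each array. Figures used matplotlib 3.10.9 in Python 3.11.15.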

Additional observations from a re-analysis of the deposited data

How the results depend on the processing

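Of 408 values of 26 named members under 16 alternatives, 391 kept their direction and their side of the threshold. H2-Oa was the only one of the 26 to pass before these changes, so for the others keeping their side means still not passing. All 7 values that lost their pass were of H2-Oa, and some alternatives leave a difference unchanged by design. The class II, class I and class I partner medians moved by less than the spread between arrays under each alternative. The number of probe sets passing was 171 and was 91 with annotated probe sets only, 92 with 1 probe set per gene, 89 with a gene's probe sets averaged, and 65 to 188 with 1 array left out. The number of class II molecules passing was 1 (H2-Oa) and was 0 with dim probe sets left out, which removes H2-Oa, and 0 with any 1 array left out. The number of class I molecules passing was 0, and was 0 to 1 with 1 array left out. Psmb8 changed sign after a second quantile normalization (0.0088). With 1 array left out, Tap2 ranged from -0.026 to 0.11, Psmb9 from -0.14 to 0.057 and the probe set of H2-Q2 and H2-D1 from -0.26 to 0.22. The cause of these changes was not tested.

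With the replicate number as a block, 88 probe sets passed, 0 class II molecules (H2-Oa adjusted p 0.0674) and 1 class I molecule (H2-M2, adjusted p 0.0206). The labels do not say that a number marks a pair: deviations of same-numbered arrays correlated at -0.02, 0.01 and -0.04 over probe sets, and WT replicate 1 correlated best with Falcor-null replicate 3 (0.04).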
